A study of Mus musculus with 8 samples.

Results

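Some of the 9 genes described here encode proteins that bring membrane and lipid to the phagophore, the cup-shaped membrane that closes into an autophagosome. Others encode the phosphoinositide-binding WIPI proteins that sit on it, and Ambra1 encodes a scaffold protein described below. The 9 genes are Atg2a, Atg2b, Atg9a, Vmp1, Tmem41b, Wipi1, Wipi2, Wdr45 and Ambra1. They were chosen by symbol, with no filter on their values, though earlier results of these data were known. All 9 were found among the 24213 genes of the array, on 11 features (a feature is a set of probes read together). Where several features carried a symbol, values are of the brightest by mean signal.

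The samples were labelled as hematopoietic stem cells, the cells that renew the blood, sorted from the bone marrow of C57BL/6 mice. They were read on 8 arrays, each of an individual mouse per the series' design. The 4 control mice carried floxed Atg12 alleles (Atg12flox/flox), and the 4 conditional knockout mice carried the same alleles with Mx1-Cre (Atg12flox/flox:Mx1-Cre), a recombinase transgene driven by an interferon-responsive promoter and thus not restricted to blood stem cells. At 4 weeks of age all mice, controls included, were given the interferon inducer poly(I:C), and their cells were taken 2 to 3 months afterwards, at a labelled age of 3 to 4 months. The gate was Lin-, c-Kit+, Sca-1+, Flk2-, CD150+ and CD48-. No control mouse carried Cre, so that Cre and loss of Atg12 cannot be told apart.

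In autophagy, ATG9A vesicles are thought to seed the phagophore, ATG2A and ATG2B act as bridges along which lipids pass from the endoplasmic reticulum, and VMP1 and TMEM41B, in the membrane of the endoplasmic reticulum, move lipids between its leaflets. WIPI proteins bind phosphatidylinositol 3-phosphate on the new membrane. WIPI2 recruits ATG16L1, and with it the conjugate of ATG12 and ATG5, so that WIPI2 acts just upstream of the product of the gene deleted here. WDR45, also called WIPI4, binds ATG2 proteins, and AMBRA1 is a scaffold of the Beclin complex and a substrate receptor of a ubiquitin ligase that turns over D-type cyclins.

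Promoter windows of all 9 genes were found in the RefSeq table (GRCm38.p6), which holds 250 bases before and 50 bases after each annotated start, in 11 windows, since Vmp1 has 3. Those of Wipi1, the gene with the largest difference below, of Wipi2, its relative, and of Ambra1, whose groups did not overlap, are shown 5′ to 3′ on the gene's strand. Capitals mark the GC box, GGGCGG or its reverse complement CCGCCC, counted with overlaps.
Wipi1, chr11:109611340-109611639, minus strand: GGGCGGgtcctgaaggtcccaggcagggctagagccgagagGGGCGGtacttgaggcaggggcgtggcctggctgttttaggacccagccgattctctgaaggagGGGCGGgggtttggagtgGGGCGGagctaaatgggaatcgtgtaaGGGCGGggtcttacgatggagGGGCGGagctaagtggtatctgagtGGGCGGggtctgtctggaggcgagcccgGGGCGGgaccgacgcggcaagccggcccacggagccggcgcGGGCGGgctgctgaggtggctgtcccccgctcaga
Wipi2, chr5:142629334-142629633, plus strand: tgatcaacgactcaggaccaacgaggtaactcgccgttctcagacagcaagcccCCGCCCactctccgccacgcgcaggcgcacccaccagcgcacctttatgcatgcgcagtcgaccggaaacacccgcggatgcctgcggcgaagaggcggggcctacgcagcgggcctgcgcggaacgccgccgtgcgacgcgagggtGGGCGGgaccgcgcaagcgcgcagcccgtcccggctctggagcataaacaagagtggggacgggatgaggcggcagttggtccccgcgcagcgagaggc
Ambra1, chr2:91729888-91730187, plus strand: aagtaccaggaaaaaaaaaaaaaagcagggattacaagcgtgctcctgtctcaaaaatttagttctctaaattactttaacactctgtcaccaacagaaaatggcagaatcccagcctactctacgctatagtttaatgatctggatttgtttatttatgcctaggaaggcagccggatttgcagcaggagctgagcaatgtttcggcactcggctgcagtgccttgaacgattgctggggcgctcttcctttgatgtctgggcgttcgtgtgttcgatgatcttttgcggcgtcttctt
The Wipi1 window held 9 GC boxes, all in the forward orientation, and at least 9 were found in 0.125% of the 32851 windows in the table, this one included. Wipi2 held 2, Tmem41b 4 and Atg2b 3, and the windows of the other 5 genes held 0, where 35.7% of all windows held at least 1. The G and C content was 69.0% for Wipi1, 69.7% for Wipi2 and 44.7% for Ambra1, against a median of 52.7% over all windows. The letters CACGTG, which form the core of the element bound by the lysosomal regulator TFEB and read the same on both strands, were in 0 of the 11 windows and in 7.15% of all windows. These matches describe the sequence and were not tested against the expression values.

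Values below are log2 RMA signals as deposited, so that 1 unit is a doubling of signal, and a difference is knockout minus control. Levels of different genes, and means of different lists, come from different probes and are not compared with each other. The exception is the rough guide that follows. As a guide to the level of absent transcripts, 30 genes restricted to other organs were read, and their 90th percentile, 4.82, was exceeded by the mean of all 9 genes and of 9169 genes in all. Of 12 markers of the sorted cells, Kit (8.36 to 8.70 over the arrays), Meis1 and Hlf had a mean above it. The other 9, Slamf1 (2.22 to 2.98), which encodes CD150, among them, did not. The list mean of the 12 was 4.03 to 4.22 on control and 4.06 to 4.25 on knockout arrays. Single differences ran from -0.32 to 0.65, with 6 above 0 and 6 below, and 0 had an adjusted p under 0.05 (limma). Ly6a, which encodes Sca-1, and Hoxb5 were higher in knockout at an unadjusted p under 0.05. Both were among the 9 not above the absent level. All 8 myeloid progenitor markers had a mean above the level, with a list mean of 10.01 to 10.06 on control and 9.91 to 10.06 on knockout arrays. The share of stem cells among the sorted cells was not tested. Signal of Xist without that of Y-linked genes was seen on control 4, knockout 1 and knockout 2, the reverse on the other 3 controls and knockout 3, and both signals on knockout 4, so sex-linked signal was not balanced between the groups. Knockout 4 had Xist at 8.12 and the Y-linked gene Eif2s3y at 6.85, and whether it held cells of 1 mouse was not tested. Without knockout 4, 7 of the 9 genes still had a difference below 0, from -0.43 for Wipi1 to 0.05 for Atg2b among all 9. Markers of mast cells and basophils were lower in knockout arrays for 8 of 8 genes, where 49.4% of all genes had a difference below 0. Their list mean was 5.48 to 5.96 on control and 5.16 to 5.57 on knockout arrays, and 5 of the 8 exceeded the absent level. Cpa3, which encodes mast cell carboxypeptidase, was at a difference of -1.16. Of the 8, 0 had an adjusted p under 0.05 over all genes (limma). An unadjusted p under 0.05 was seen for 4 of them and for 4.94% of all genes. For 3 of the 8, and for 1.54% of all genes, every knockout array lay below every control array. Of 10 megakaryocyte markers, 1 exceeded the absent level and 8 had a difference below 0 (list mean 4.17 to 4.45 and 3.81 to 4.19). None of these 10 had an adjusted p under 0.05 (limma), and 2 had an unadjusted p under 0.05. The part of these markers in the differences below was not tested. In sorted populations, fewer cells of a type and less RNA per cell cannot be told apart.

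None of the 9 genes passed the test over all genes (limma, adjusted p = 1.00 for each, 0 at an unadjusted p under 0.05), while 0.00413% of all genes passed and 4.94% had an unadjusted p under 0.05. The gene that passed was Atg12 itself, at 6.37 to 6.55 on control and 5.35 to 5.66 on knockout arrays, a difference of -0.93 (SE 0.10, limma adjusted p = 0.031) or 52.4% of the control signal. That call was lost when any 1 array was left out (limma adjusted p 0.0542 to 0.226). Among the 9 genes, 7 had a difference below 0 and 2 above, with a median of -0.11. Differences lay below 0 for 49.4% of all genes, and for 55.9% of genes above the absent level, whose median was -0.01. Differences ran from -0.34 for Wipi1 to 0.10 for Vmp1. No 95% interval of a member reached below -0.73 or above 0.34, and those of the 8 genes other than Wipi1 reached no lower than -0.42.

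**Figure D1:**
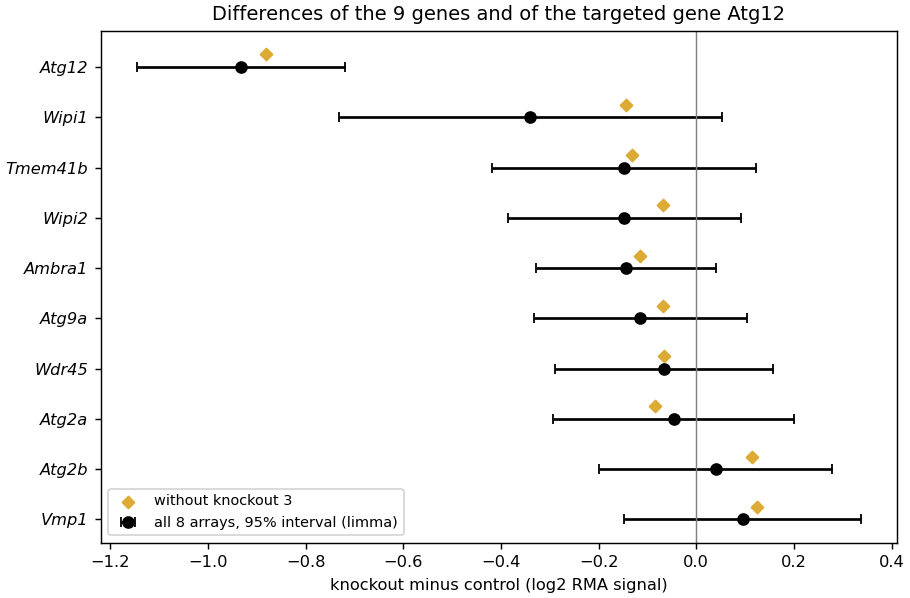
Knockout minus control difference in log2 RMA signal (x axis) for the 9 genes and Atg12 (y axis), with the 95% interval of the limma fit over 8 arrays (black) and the difference without knockout 3 (diamonds). The intervals of all 9 genes cross 0 and that of Atg12 (-1.15 to -0.72) does not; without knockout 3 the Wipi1 difference is -0.14.

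Of the WIPI proteins, Wipi1, which binds phosphatidylinositol 3-phosphate and is widely used as a marker of phagophores, had the largest difference of the group. Its signal was 5.24, 5.39, 5.13 and 5.03 on controls 1 to 4 and 4.94, 5.10, 4.27 and 5.12 on knockouts 1 to 4. Knockout 3 stood well below every other array and below the absent level, the other 7 arrays were above that level, and the groups overlapped. The means were 5.20 ± 0.15 and 4.86 ± 0.40 (SD, n = 4 each), a difference of -0.34 (SE 0.18; 79.0% of control, 95% interval 60.2% to 104%). The two-sided exact permutation p was 0.114, where 4 against 4 arrays can give no less than 0.0286, and limma gave an unadjusted p of 0.0835. Without knockout 3 the difference was -0.14. Within the 3 arrays showing only Xist (1 control, 2 knockouts) it was -0.01, and within the 4 showing only Y-linked signal (3 controls and knockout 3) it was -0.98.

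Wipi2, the WIPI protein that recruits ATG16L1, read 6.20, 6.20, 6.21 and 6.41 on controls 1 to 4 and 6.16, 6.12, 5.87 and 6.28 on knockouts 1 to 4. Control 4 was the highest array and knockout 3 the lowest, and knockout 4 lay above 3 of the controls. The difference was -0.15 (SE 0.11, 95% interval -0.39 to 0.09; two-sided exact permutation p = 0.2), and -0.07 without knockout 3. Wdr45, the X-linked gene of WIPI4, which is mutated in a human neurodegenerative disease with iron accumulation, read 5.69, 5.53, 5.65 and 5.35 on controls and 5.58, 5.38, 5.49 and 5.50 on knockouts. Control 4, the control with Xist signal, was the lowest of all arrays, and the knockouts lay within the range of the controls. Its difference was -0.07 (SE 0.10; two-sided exact permutation p = 0.457), and it was 0.13 among arrays with Xist alone and 0.01 with Xist signal as a covariate. Without control 1 it was -0.02, and without control 4 it was -0.13. Wdr45b, the remaining mouse WIPI gene, was at 5.74 ± 0.09 in controls and 5.65 ± 0.23 in knockouts (SD, n = 4 each), and its difference of -0.09 became 0.02 without knockout 3.

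**Figure D2:**
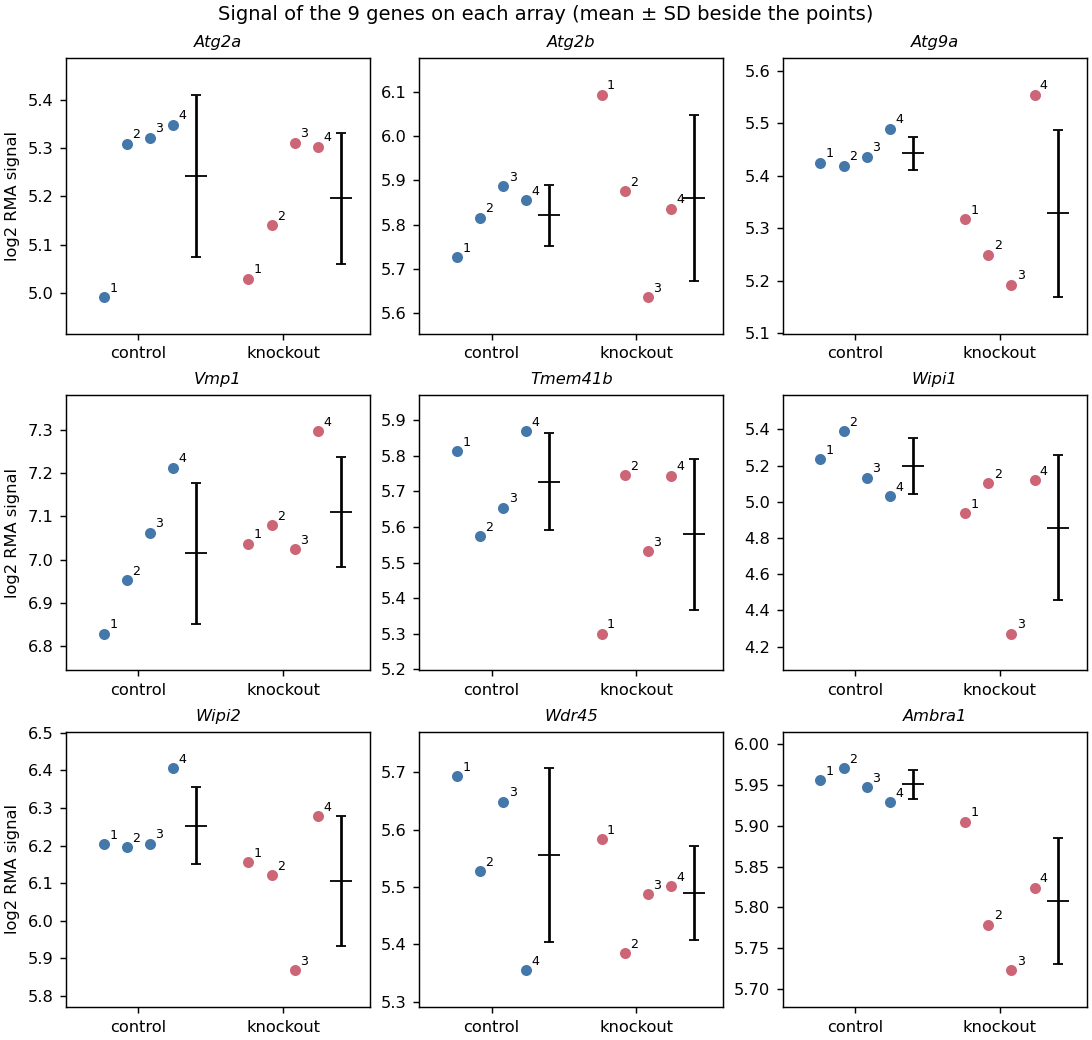
Log2 RMA signal (y axis, a scale of its own in each panel) of the 9 genes on control (blue) and knockout (red) arrays; numbers are the replicate, and bars beside the points are the mean ± SD of 4 arrays. The groups overlap for 8 genes, and for Ambra1 every knockout array (5.72 to 5.90) lies below every control array (5.93 to 5.97).

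Ambra1 was the 1 gene of the 9 whose groups did not overlap, as was so for 2.90% of all genes. Controls 1 to 4 read 5.96, 5.97, 5.95 and 5.93, and knockouts 1 to 4 read 5.90, 5.78, 5.72 and 5.82. The controls lay closer together than those of any other of the 9 genes, and the highest knockout, knockout 1, was only just below the lowest control. The means were 5.95 ± 0.02 and 5.81 ± 0.08 (SD, n = 4 each), a difference of -0.14 (SE 0.08; 90.5% of control, 95% interval 79.7% to 103%). The two-sided exact permutation p was 0.0286, the smallest this design allows, in a family of 9 such tests, and the limma adjusted p over all genes was 1.00. Groups did not overlap, with knockout lower, for 1.54% of all genes and for 2.20% of genes above the absent level. The difference lay between -0.18 and -0.11 when each array was left out in turn, between -0.24 and -0.09 among arrays of like sex-linked signal, and kept its sign in all alternatives run.

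The partners and substrates of AMBRA1 did not pass the test in either direction (0 of 10, and 0 with groups that did not overlap). Their median difference was -0.05, with 6 of 10 below 0. Ccnd2, the cyclin D2 gene, was at -0.19 (SE 0.11), with knockout 1 the lowest array at 8.14 and control 1 the highest at 8.71. Ccnd1, for cyclin D1, was at -0.23 (SE 0.21), with controls from 5.36 to 6.30 spanning all 4 knockouts.

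Atg9a, whose protein is the transmembrane scramblase of the seed vesicles, read 5.42, 5.42, 5.44 and 5.49 on controls and 5.32, 5.25, 5.19 and 5.56 on knockouts. Knockouts 1 to 3 lay below every control, and knockout 4 lay above every array. The difference was -0.11 (SE 0.10, 95% interval -0.33 to 0.10; two-sided exact permutation p = 0.229), from -0.19 without knockout 4 to -0.07 without knockout 3. Of 12 measured genes of ATG9 vesicle traffic, 0 passed the test, and 10 had a difference above 0, with a median of 0.03. Ap4e1, a subunit of the adaptor complex that sorts ATG9A out of the trans-Golgi network, was at -0.15 (SE 0.09), and Snx18, a sorting nexin, at 0.11 (SE 0.10). Atg9b, the relative of Atg9a, was below the absent level on all 8 arrays.

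The bridge-like lipid transfer genes Atg2a and Atg2b had the smallest differences. Atg2a read 4.99, 5.31, 5.32 and 5.35 on controls and 5.03, 5.14, 5.31 and 5.30 on knockouts. Control 1 stood apart from the other controls as the lowest array, next to knockout 1. The difference was -0.05 (SE 0.11; two-sided exact permutation p = 0.686), -0.13 without control 1 and 0.01 without knockout 1. Atg2b read 5.73, 5.82, 5.89 and 5.85 on controls and 6.09, 5.88, 5.64 and 5.84 on knockouts, with knockout 1 highest, knockout 3 lowest and the controls in between. Its difference was 0.04 (SE 0.11; two-sided exact permutation p = 0.743). The other feature carrying the symbol Atg2b had a mean of 4.59, exceeded the absent level on 0 of 8 arrays, and gave -0.09 (SE 0.13). The Vps13 genes, of the same protein superfamily, had differences of -0.08 for Vps13a, -0.03 for Vps13b, 0.08 for Vps13c and -0.02 for Vps13d, and none passed the test. Without knockout 3 they were 0.04, 0.03, 0.14 and -0.02 in the same order, so the signs of Vps13a and Vps13b rested on that array.

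Vmp1, whose protein is a scramblase of the endoplasmic reticulum, read 6.83, 6.95, 7.06 and 7.21 on controls and 7.04, 7.08, 7.02 and 7.30 on knockouts. Control 1 was the lowest array and knockout 4 the highest, and 3 knockouts lay within the range of the controls. The difference was 0.10 (SE 0.11, 95% interval -0.15 to 0.34; two-sided exact permutation p = 0.371). It was 0.03 without control 1 and likewise without knockout 4, and 0.16 without control 4. It was -0.15 among arrays with Xist alone and 0.01 with Xist signal as a covariate. In RefSeq the locus overlaps the microRNA gene Mir21a, and signal of its primary transcript cannot be told apart from that of Vmp1 without probe positions.

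Tmem41b, the relative of Vmp1 in the same family of scramblases, was read by a pair of features that disagreed. The kept feature read 5.81, 5.57, 5.65 and 5.87 on controls and 5.30, 5.74, 5.53 and 5.74 on knockouts, with knockout 1 and knockout 3 below every control. It gave a difference of -0.15 (SE 0.12; two-sided exact permutation p = 0.314), and -0.05 without knockout 1. The other feature read 5.63, 5.40, 5.11 and 5.25 on controls and 5.48, 5.31, 5.91 and 5.18 on knockouts, with knockout 3 the highest array. It gave 0.12 (SE 0.17; two-sided exact permutation p = 0.571), so the sign depended on the feature, and over the 8 arrays the Pearson correlation between them was -0.34, given as a description. In the deposited table the kept feature stands between features of Ctsh and Adamts7. In RefSeq these genes lie on chromosome 9 with the pseudogene Tmem41b-ps between them, while Tmem41b is on chromosome 7, where the neighbours of the other feature, Dennd5a and Sbf2, also lie. The probe sequences were not used here, and whether the kept feature reads the pseudogene was not tested. Among further relatives of VMP1, Tmem64 was at -0.24 (SE 0.12) and Tmem41a at 0.09 (SE 0.16).

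**Figure D3:**
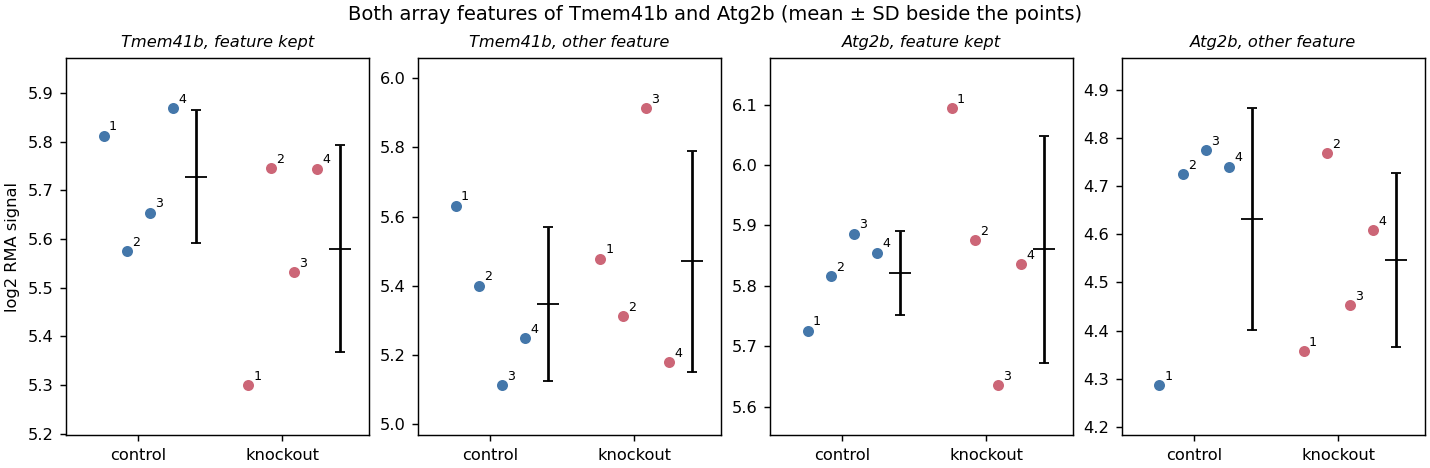
Log2 RMA signal (y axis, a scale of its own in each panel) of both features of Tmem41b and of Atg2b on control (blue) and knockout (red) arrays; numbers are the replicate, and bars are the mean ± SD of 4 arrays. The kept Tmem41b feature has a difference of -0.15 and the other 0.12, with knockout 3 at 5.53 and 5.91.

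Whether related genes changed unequally was asked with the log2 ratio of each pair within an array, compared between the groups. The ratio of Wipi1 to Wipi2 differed by -0.19, that of Atg2a to Atg2b by -0.09, that of Vmp1 to Tmem41b by 0.24 and that of Wdr45 to Wdr45b by 0.02. Two-sided exact permutation p-values were 0.343, 0.629, 0.114 and 0.886, and after Benjamini-Hochberg adjustment over the 4 ratios they lay between 0.457 and 0.886. The ratio of Wipi1 to Wipi2 differed by -0.08 without knockout 3, by -0.11 without control 2 and by -0.30 without control 4. With 1 array left out, that of Vmp1 to Tmem41b ran from 0.15 without control 1 to 0.31 without knockout 2. Without knockout 2 its two-sided exact permutation p was 0.0286 before adjustment, and 0 of the 4 ratios passed after it. With the other features of Tmem41b and Atg2b the ratio of Vmp1 to Tmem41b differed by -0.03 and that of Atg2a to Atg2b by 0.04.

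Several of the 9 genes shared their lowest array. Knockout 3 was the lowest array for 5 of them (Wipi1, Wipi2, Ambra1, Atg9a and Atg2b), and for 35.9% of all genes above the absent level. Control 4 was the highest array for 3 and knockout 4 for 2. Of the 36 pairs of genes, 26 correlated above 0 over the 8 arrays, with a median Pearson r of 0.23, from -0.61 (Vmp1 and Wdr45) to 0.86 (Atg9a and Wipi2). These values share the same arrays and are a description. The spread within groups was of the usual size, with a median residual SD of 0.14 for both the 9 genes and all genes above the absent level, from 0.06 for Ambra1 to 0.30 for Wipi1. Leaving out knockout 3, 7 of the 9 genes still had a difference below 0, with a median of -0.07.

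**Figure D4:**
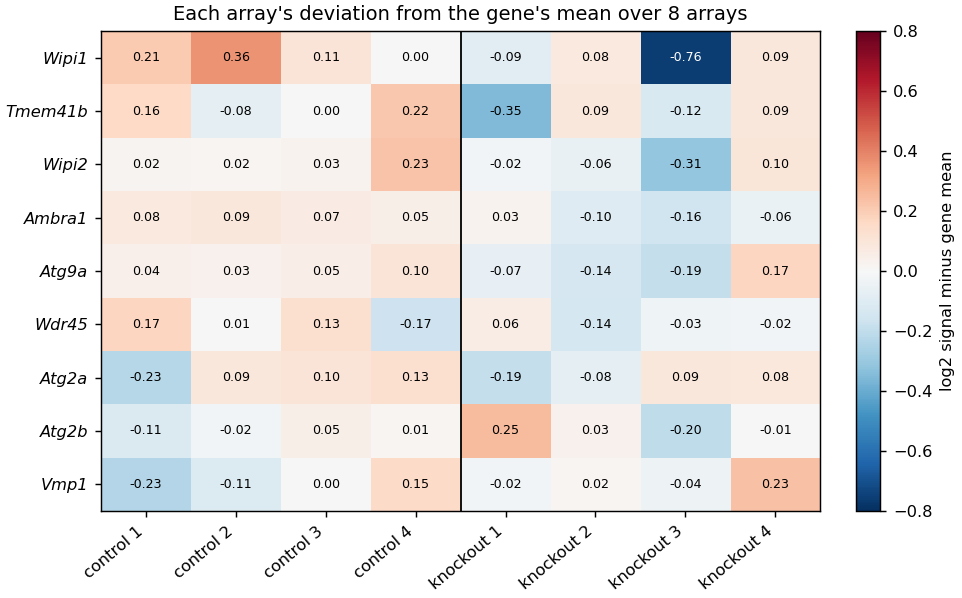
Each array's log2 signal minus the gene's mean over the 8 arrays (colour and printed value) for the 9 genes (rows, ordered by difference) and the arrays (columns; the line parts control from knockout). Knockout 3 is the lowest array for 5 genes.

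By the highest Pearson correlation over the 8 arrays among genes above the absent level, the gene most like Wipi1 was Uckl1 (r = 0.99, Spearman rho 0.83), that most like Ambra1 was Nfe2 (r = 0.96, rho 0.93) and that most like Wipi2 was Wdr26 (r = 0.98, rho 0.76). With 9169 genes and 8 arrays many genes come close, and 83 genes had r over 0.9 with Wipi1, 31 with Ambra1 and 82 with Wipi2. Uckl1 read 4.79 on knockout 3 and 5.15 to 5.38 on the other arrays, so that its likeness to Wipi1 rested largely on that array.

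Of 106 measured genes of the wider pathway, beside the 9, Atg12 was the 1 that passed the test (limma, adjusted over all genes), with 55 differences above 0 and 51 below, a median of 0.01, and 2 genes in each direction at an unadjusted p under 0.05. Among 27 other core autophagy genes, 18 had a difference below 0 and the median was -0.02. Ulk1, the initiating kinase, was at -0.19 (SE 0.09), and Atg16l1, whose protein WIPI2 recruits, at 0.02 (SE 0.09). Among 16 phosphoinositide genes, Plekhm1, an adaptor of late endosomes and lysosomes, had knockouts (5.81 to 5.90) above controls (5.55 to 5.76), Vac14, a scaffold of the kinase complex that makes phosphatidylinositol 3,5-bisphosphate, had knockouts (7.39 to 7.43) below controls (7.44 to 7.54), and Mtmr4, a myotubularin phosphatase, was at 0.17 (SE 0.09). Vac14 was named after its values were seen. Groups did not overlap, with knockout higher, for 1.36% of all genes.

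Among 11 genes of endoplasmic reticulum contact, vesicle fusion and lipid synthesis, Fads2, the delta-6 fatty acid desaturase, was at -0.57 (SE 0.16, limma adjusted p = 0.949), from 5.60 ± 0.31 to 5.03 ± 0.21 (SD, n = 4 each), and Tecpr1 was below the absent level on all arrays. Wipi1 is known as a target of the transcription factor TFEB, and 22 TFEB family factors and targets were read. None passed the test, 13 had a difference above 0, and the median was 0.03. Neu1, the lysosomal sialidase, was at 0.31 (SE 0.12, limma adjusted p = 0.993). Mitf, a factor of the TFEB family, was at 4.11 ± 0.06 in controls and 4.49 ± 0.19 in knockouts (SD, n = 4 each), below the absent level on all 8 arrays though its groups did not overlap.

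**Figure D5:**
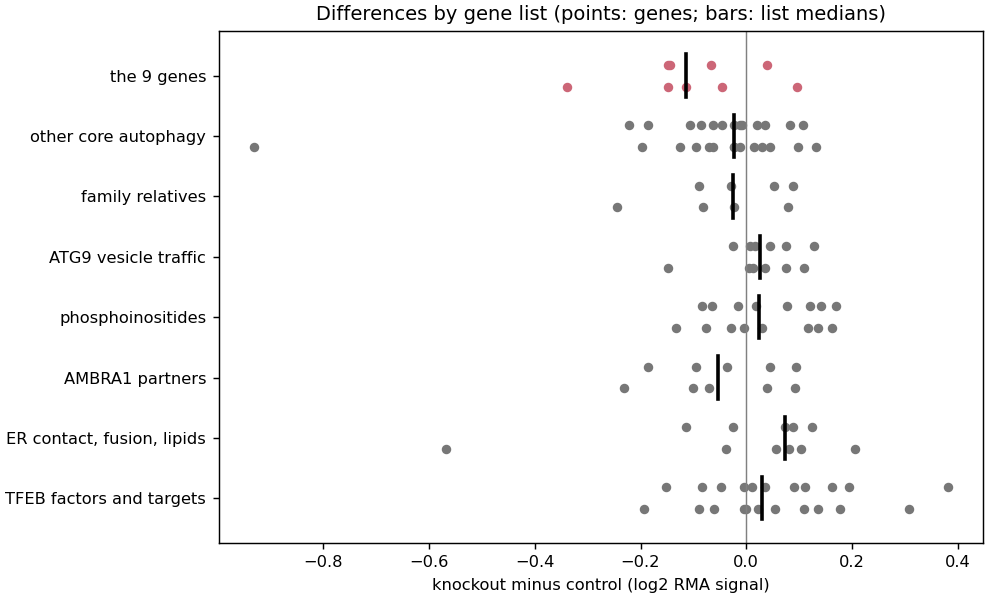
Knockout minus control difference in log2 RMA signal (x axis) of each gene (points) in the group of 9 genes (red) and in 7 lists of related genes (grey), with list medians (bars). Medians lie between -0.11 for the 9 genes and 0.07 for the list of endoplasmic reticulum contact, fusion and lipid genes, and Atg12 at -0.93 is the point farthest to the left.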

How the data were processed

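Per the labels' protocols, the small RNA yields of sorted cells from 4 control and 4 knockout mice (PicoPure extraction) were amplified as whole transcripts by Ovation Pico WTA before Affymetrix Gene ST 1.0 arrays. The authors deposited log2 signals; the submitters' processing notes name RMA (background correction, quantile normalization and summary of probes) and limma, with no settings, and the build behind the symbols is not given in the sources used here. RMA equalises the arrays, so a change common to most genes would not be seen.

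Of 28853 features, 1494 without a symbol were left out, and 1 feature per symbol gave 24213 genes. The series value table held the same values (largest difference 0). Knockout was compared with control with limma 3.58.1 (lmFit, eBayes) in R 4.3.3 on the log2 values, with no filter and no covariate, and p-values were adjusted by Benjamini-Hochberg over all genes at a threshold of 0.05. The fit was tested on simulated data. Single genes and ratios were compared by exact permutation over 70 assignments of arrays. Precision is limited by the number of arrays.

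The genes, the lists and the tests were chosen with earlier results of these data known. Genes named were the 9, Atg12, the first 2 by p of each pathway list and all family relatives. Markers beside a result and the genes most alike were also named. Of the pathway lists, Rubcn and Rab1a were not found under these symbols, and other genes are named for their role. Same-numbered control and knockout arrays did not deviate together (r -0.10 to 0.09 over genes above the absent level). These correlations cannot exclude a pairing of the samples, and the main test treated the arrays as unpaired.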

Additional observations from a re-analysis of the deposited data

Results flagged for a closer look

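Over the 9 genes in each of the 2 groups, 18 sets of 4 arrays were examined for an array far from the others (Dixon's ratio above its 95% critical value), and 2 were found, where chance gives about 0.9. Atg2a was low on control 1, at 4.99, with the other controls at 5.31 to 5.35, and its difference was -0.13 without that array. Wipi2 was high on control 4, at 6.41, with the other controls at 6.20 to 6.21, and its difference was -0.10 without it.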

How the results depend on the processing

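The count of 0 among the 9 genes was the same in all 23 alternatives run, and that of 0 among the 4 ratios in the 11 run for it; the former included other features, signal filters, scalings, variance models, covariates and a threshold of 0.1. Just 1 gene passed in 11 of the 23 alternatives. With the replicate number as a block (replicate block), arrays centred on their median, and Xist or Y-linked signal as a covariate, 0 genes passed and 0 genes of the wider pathway. With 1 array left out the count over all genes was 0 to 3 and that of the wider pathway was 0; the 3, without control 4, did not include Atg12. The replicate block changed no other call. Wipi1, Wipi2, Ambra1 and Atg9a kept their sign in every alternative. Atg2b turned to -0.023 with features averaged, -0.046 with Xist and -0.0054 with Y-linked signal as a covariate, -0.085 with its other feature and -0.17 among arrays with Y-linked signal alone, and Atg2a to 0.10 among the last. Wdr45 turned to 0.0071 with Xist as a covariate and 0.13 among arrays with Xist alone, where Vmp1 turned to -0.15. Tmem41b turned to 0.12 with its other feature, which also turned its ratio with Vmp1 to -0.027 and that of Atg2a to Atg2b to 0.039. With 1 array left out, Atg2a ranged from -0.13 to 0.0088, Atg2b from -0.039 to 0.11, the ratio of Atg2a to Atg2b from -0.20 to 0.047 and that of Wdr45 to Wdr45b from -0.082 to 0.12. The causes were not tested. The analyses with the other features and within sex-linked signal were chosen after seeing the data. With 4 arrays per group, the 95% intervals of all 9 genes include 0 and do not show that they were unchanged.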

Other observations

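Among genes above the absent level, the closest likeness to any of the 9 was that of Ginm1 with Vmp1. Ginm1, a gene of a glycosylated membrane protein, was chosen after its values were seen. Their Pearson correlation over the 8 arrays was 0.996 and Spearman's rho was 1, with Ginm1 at 5.13, 5.24, 5.41 and 5.54 on controls 1 to 4 and 5.37, 5.41, 5.35 and 5.62 on knockouts 1 to 4. The arrays are shared by all genes, and 44 genes had r over 0.9 with Vmp1.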
